A study of Mus musculus with 12 samples.

Results

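The regions described here are long-span coding-exon peaks of N6-methyladenosine (m6A) in mouse testis. They are the peaks that the authors' lists annotate as exonic, which in these lists means coding exons, and whose listed span exceeds 1000 bases. The span runs from the first to the last base on the genome and so counts any introns in between. There were 1919 of them among 32277 peaks in the Alkbh5-/- (KO) list and 1577 among 33078 peaks in the wild-type (WT) list, 3496 of 65355 peaks in all.

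The RNA came from testes of male mice at postnatal day 18, either Alkbh5-/- or WT. Fragments of polyadenylated RNA were immunoprecipitated (IP) with an m6A antibody, and input libraries of RNA that was not selected stand beside them. There were 12 libraries in 4 groups of 3 replicates, KO IP, KO input, WT IP and WT input. One peak list per genotype, IP against input, was used, with no value per library, so depth is unknown and no difference below has a replicate error or a test.

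m6A is placed on mRNA by a nuclear methyltransferase complex, read by YTH-domain and other proteins, and removed by the demethylases Alkbh5 and Fto. It is known to be dense near stop codons and in unusually long internal exons. Alkbh5 is highly expressed in testis, and males without it are known for impaired fertility with defective meiosis and spermiogenesis.

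Alkbh5 had 3 peaks in the WT list and no peak in the KO list. Those of WT testis lay in its 5′UTR (span 2060 bases, 7.22-fold over input), its coding exon (211 bases, 3.19-fold) and its 3′UTR (211 bases, 3.77-fold), and none is a long-span coding peak. Of the cell type markers examined, Sycp1, which builds the synaptonemal complex of spermatocytes, was the one with a long-span coding peak, and it had one in both lists. Markers of spermatogonia, round spermatids, Sertoli, Leydig, peritubular and endothelial cells and macrophages had 0 in both lists. Since the labels give testis and no sorted cell type, fewer cells of a type and less RNA per cell cannot be told apart in any difference below. A gene must be transcribed to have a peak, and expression was not used here.

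A few long-span peaks hold the bases before a RefSeq start of their gene, and sequences of such bases are shown. Only 3 KO and 4 WT members reached outside their gene as annotated in the lists. Most of these stretches therefore lie inside the annotated gene, before a start within it. RefSeq (GRCm38.p6) gives 32851 gene start windows, of which the 250 bases before the start were searched. In the KO list 15 members held the whole window before a RefSeq start of their own gene, against 11 in the WT list. Of the 6 windows inside members of both lists, 4 lay in members with a false discovery rate (FDR) of 1e-05 or below in both. They belong to Arid1b, a subunit of a SWI/SNF chromatin remodeler, on the plus strand at chr17:4994824-4995073; Dnmbp, a guanine nucleotide exchange factor, on the minus strand at chr19:43879769-43880018; Kdm3a, a histone lysine demethylase required for spermiogenesis, on the minus strand at chr6:71609140-71609389; and Samd15 on the plus strand at chr12:87200258-87200507. They are written 5′ to 3′ on the gene's strand, with the m6A-type word GGACT in capitals.
Arid1b: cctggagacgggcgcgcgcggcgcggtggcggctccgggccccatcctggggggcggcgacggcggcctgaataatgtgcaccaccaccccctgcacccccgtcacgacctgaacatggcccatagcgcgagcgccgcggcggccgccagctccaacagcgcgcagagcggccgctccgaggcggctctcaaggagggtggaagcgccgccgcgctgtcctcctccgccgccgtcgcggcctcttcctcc
Dnmbp: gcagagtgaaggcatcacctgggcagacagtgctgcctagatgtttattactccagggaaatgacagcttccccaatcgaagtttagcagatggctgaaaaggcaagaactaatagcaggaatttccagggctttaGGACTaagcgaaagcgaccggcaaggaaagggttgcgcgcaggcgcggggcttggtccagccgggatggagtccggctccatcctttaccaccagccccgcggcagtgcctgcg
Kdm3a: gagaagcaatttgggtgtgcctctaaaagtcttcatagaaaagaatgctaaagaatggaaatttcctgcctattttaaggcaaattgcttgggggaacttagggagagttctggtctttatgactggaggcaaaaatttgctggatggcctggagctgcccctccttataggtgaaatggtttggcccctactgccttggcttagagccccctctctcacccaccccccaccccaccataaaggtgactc
Samd15: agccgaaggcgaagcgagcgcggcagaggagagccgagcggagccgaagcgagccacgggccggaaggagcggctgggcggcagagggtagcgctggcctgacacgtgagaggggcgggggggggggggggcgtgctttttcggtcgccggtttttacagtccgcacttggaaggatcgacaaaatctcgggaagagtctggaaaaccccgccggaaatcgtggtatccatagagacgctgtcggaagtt

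The word GGACT, part of the sequence that the methyltransferase prefers, was searched on both strands together with its 2 variants that end in A or C. Dnmbp held GGACT 1 time on its own strand, and the other 3 windows held none of the 3 words on theirs. On the other strand Dnmbp held 2 such words, Arid1b and Samd15 1 each, and Kdm3a 0. Of all 32851 upstream windows, 21.4% held GGACT on the gene's strand, 38.9% held it on either strand, and 52.8% held at least 1 of the 3 words on the gene's strand. The Dnmbp peak spanned 15153 bases in the KO list at 9.08-fold and 15482 bases in the WT list at 11.6-fold. The Kdm3a peak spanned 4393 bases in the KO list at 10-fold and 2845 bases in the WT list at 4.20-fold. The Samd15 peak spanned the same 2264 bases in both lists, at 6.39-fold in the KO list and 10.5-fold in the WT list. The Arid1b peak spanned 1111 bases in the KO list at 10.8-fold and 1651 bases in the WT list at 24.1-fold. Whether transcripts are spliced across these windows was not analysed here.

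Long spans made up a larger share of coding-exon peaks in KO testis. They were 1919 of 6278 coding-exon peaks in the KO list (30.6%, 95% Wilson interval 29.4 to 31.7) and 1577 of 5879 in the WT list (26.8%, 25.7 to 28.0). The difference was 3.74 percentage points (95% Newcombe interval 2.13 to 5.35). These intervals cover counting error only, treat peaks as independent and say nothing of the spread between mice. Among peaks at an FDR of 1e-05 or below, the shares were 42.6% of 3386 in the KO list and 37.9% of 3110 in the WT list, a difference of 4.71 points (2.32 to 7.09). The other annotation classes gave smaller differences in the share of spans above 1000 bases. KO minus WT was 1.64 points (0.733 to 2.56) for 3′UTR peaks, 0.51 points (-1.50 to 2.51) for 5′UTR peaks and 0.19 points (-1.32 to 1.71) for noncoding-exon peaks.

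**Figure D1:**
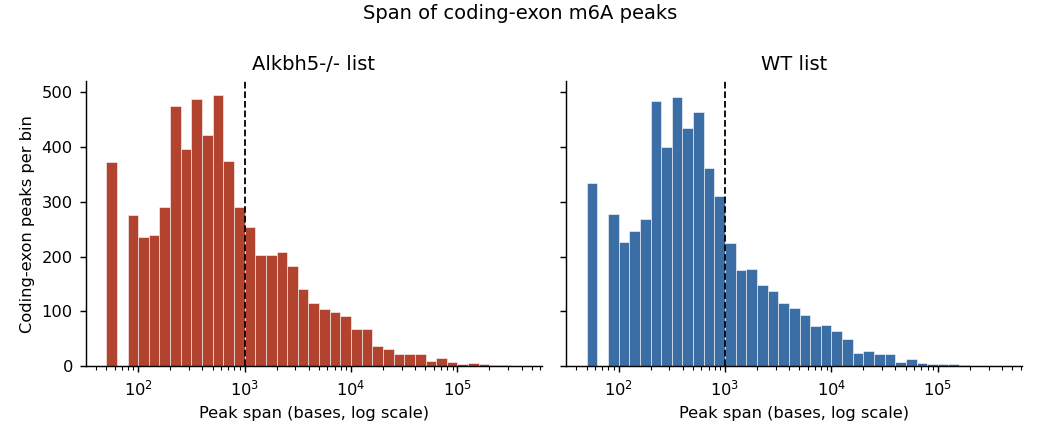
Number of coding-exon peaks (y axis) by listed span in bases on a log scale (x axis), in the KO list (left) and the WT list (right); the dashed line marks the limit of 1000 bases. The long-span peaks form the right tail, 30.6% of coding-exon peaks in the KO list and 26.8% in the WT list.

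The tail was long in both genotypes. The median span of the long-span coding peaks was 2770 bases in the KO list (quartiles 1622 and 6789) and 2736 bases in the WT list (quartiles 1566 and 6367). Spans above 10000 bases made up 318 of the KO members and 249 of the WT members. The longest spans in the KO list lay in Tmem132d (284310 bases), Adgrb3 (266829 bases), an adhesion receptor, and Ctnna3 (235541 bases), an alpha-catenin. Those in the WT list lay in Naaladl2 (231732 bases), Tmtc2 (165828 bases) and Gpr39 (162289 bases), a zinc-sensing receptor. The Tmem132d peak had a log10 FDR of only -0.367, whereas the Ctnna3 and Tmtc2 peaks reached -6.93 and -37.1. Around the limit, the KO members just above it were in Asnsd1 and Myo9a (1003 bases each), and the KO coding-exon peaks just below it were in Cep83 (999 bases) and Tg (994 bases). In the WT list, Setd1b and Taf13 were just above it (1006 bases each), and Ankrd17 and Nat8l just below it (998 bases each).

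Long-span peaks carried higher enrichment than short-span ones within each list. The fold is the authors' ratio of IP over input for each peak and is compared in this paragraph within a list. Folds of the KO and WT lists printed side by side further on carry no error and were not tested. Its median was 7.37 for long-span peaks (quartiles 4.10 and 11.1) and 4.87 for short-span coding peaks in the KO list. In the WT list it was 7.02 for long-span peaks (quartiles 3.93 and 11.1) and 4.63 for short-span ones. The median log10 FDR was -34.0 for long-span and -4.09 for short-span peaks in the KO list, and -29.4 against -3.98 in the WT list. An FDR above 0.05 was listed for 129 KO members (6.72%) and 113 WT members (7.17%), against 15.8% and 15.7% of the short-span peaks of the KO and WT lists.

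The long-span peaks lay in long genes. Span and gene length both count introns, so choosing long spans by itself favours long genes. The median length of the annotated gene was 50.1 kb for KO members and 45.1 kb for WT members, against 31.3 kb and 31.7 kb for the short-span coding peaks of the KO and WT lists. A member covered a median of 7.73% of its gene in the KO list and 8.42% in the WT list, introns included. The midpoint fell in the last 20% of the gene for 27.7% of KO members (25.8 to 29.8), against 34.0% of KO short-span peaks (32.6 to 35.4). In the WT list the shares were 30.2% of members (28.0 to 32.6) and 33.1% of short-span peaks (31.8 to 34.6). The first 20% held 11.4% of KO members and 10.3% of WT members, against 16.0% and 16.3% of short-span peaks of the KO and WT lists. For the last 20% in the WT list the intervals of the 2 shares overlap, and a longer span by itself moves a midpoint away from the ends of a gene. By edges, the peak began within 200 bases of the gene's start for 3.34% of KO members and 3.68% of WT members, against 1.90% and 2.56% of short-span peaks of the KO and WT lists. It ended within 200 bases of the gene's end for 1.72% of KO members and 2.28% of WT members, against 1.86% and 1.79% of short-span peaks of the KO and WT lists. By chromosome, the share of coding-exon peaks with a long span was highest on chromosome 12, at 38.9% in the KO list and 35.9% in the WT list, among the chromosomes with at least 100 coding-exon peaks. It was lowest on chromosome 18, at 24.0% in the KO list and 19.1% in the WT list, and on the X chromosome it was 24.5% in the KO list and 24.8% in the WT list. Intervals of chromosomes overlap. In the KO list they were 32.95 to 45.2 for chromosome 12 and 29.5 to 40.3 for chromosome 17. For chromosome 18 and the X chromosome in the KO list they were 19.2 to 29.6 and 19.5 to 30.3. The ranking of chromosomes was not tested.

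To see whether the same regions were found in both genotypes, each member was matched to peaks of the other list that overlap it by at least 1 base on the same strand. KO members had a long-span coding partner in the WT list in 1113 cases (58.0%, 55.8 to 60.2), and WT members had one in the KO list in 1110 cases (70.4%, 68.1 to 72.6). A coding partner of at most 1000 bases was found for 412 KO members (21.5%, 19.7 to 23.4) and 169 WT members (10.7%, 9.28 to 12.3). The partner was annotated to another class, mostly 3′UTR or 5′UTR, for 147 KO members (7.66%) and 139 WT members (8.81%). More than 1 peak of the other list lay under 269 KO members (14.0%) and 201 WT members (12.7%).

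**Figure D2:**
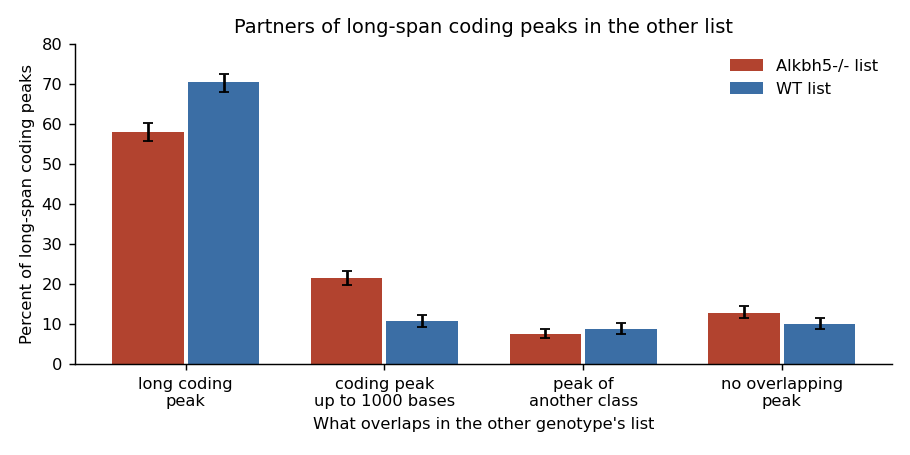
Percent of long-span coding peaks (y axis) by what overlaps them in the other genotype's list (x axis), for the KO list (left bar of each pair) and the WT list (right bar); error bars are 95% Wilson intervals of counting error. A short coding partner is found for 21.5% of KO and 10.7% of WT members, and a long one for 58.0% of KO and 70.4% of WT members.

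No partner at all was found for 247 KO members (12.9%, 11.5 to 14.4) and 159 WT members (10.1%, 8.69 to 11.7). These shares depend on the overlap asked for: with 50% of both spans they were 40.3% in the KO list and 29.1% in the WT list, and the difference 11.2 points. Taking only peaks at an FDR of 1e-05 or below in both lists, they were 11.2% in the KO list and 6.45% in the WT list. Over all peaks of all classes, 19.3% of the KO list and 21.6% of the WT list had no partner. Short-span coding peaks had no partner in 25.4% of cases in the KO list and 16.9% in the WT list. KO-only minus WT-only was 2.79 points (0.658 to 4.89) for long-span coding peaks and 8.47 points (6.76 to 10.2) for short-span coding peaks. The difference between these 2 differences was -5.68 points (-8.42 to -2.98). At spans above 2000 bases the long-span difference was 0.92 points, with an interval of -1.93 to 3.71 that includes 0.

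The genotype-only members were the weak ones. Their median fold was 4.06 in the KO list and 4.63 in the WT list, and 34.4% of those in the KO list and 35.2% of those in the WT list had an FDR above 0.05. At an FDR of 1e-05 or below, 54 KO-only members (3.74% of 1442) and 26 WT-only members (2.21% of 1178) remained. Many share the same listed values. Among the 247 KO-only members there were 172 distinct pairs of fold and p, and 19 of them stood at a fold of 6.32 with a log10 FDR of -0.367. Among the 159 WT-only members there were 108 distinct pairs, and 15 stood at a fold of 6.48 with a log10 FDR of -0.391.

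By span class, the genotype-only share in the KO list lay between 11.3% and 13.3% for each span class up to 50000 bases and was 25.5% (15.2 to 39.5) for the 47 members above that, with an interval that overlaps that of the class before it (13.3%, 9.75 to 17.8). In the WT list it was 5.50% (3.92 to 7.66) at 1000 to 2000 bases, 10.5% at 2000 to 5000, 14.5% at 5000 to 10000 and 16.7% (12.3 to 22.2) at 10000 to 50000 bases, but 9.09% (3.14 to 23.6) for the 33 members above that. The KO share was above the WT share with intervals that do not overlap in the shortest class, 11.3% (9.13 to 14.0) against 5.50%. In the 4 longer classes the intervals of the lists overlap. These intervals cover counting error only, treat peaks as independent and leave out the spread between mice. No difference by span class was tested.

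**Figure D3:**
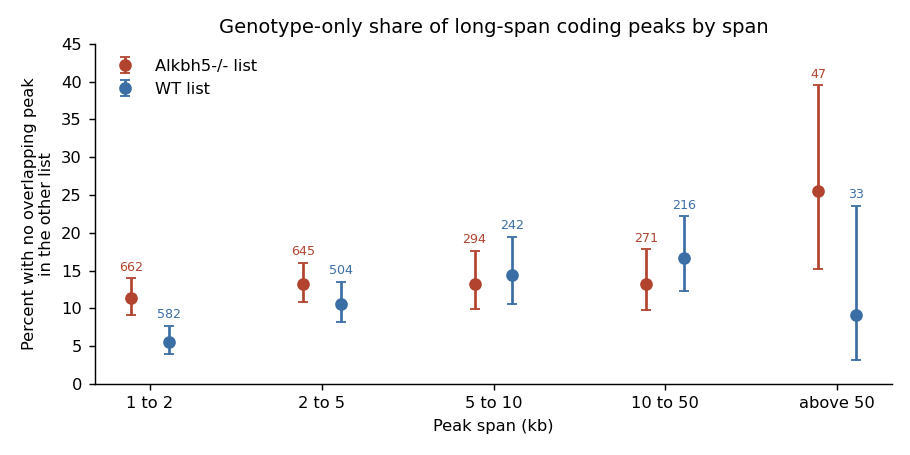
Percent of long-span coding peaks with no overlapping peak in the other list (y axis) by span class in kb (x axis), for the KO list (left point) and the WT list (right point). Bars are 95% Wilson intervals of counting error, and the number of peaks stands above each. At 1 to 2 kb the intervals do not overlap (11.3% in the KO list, 5.50% in the WT list); above 50 kb they are wide and overlap (25.5% in the KO list, 9.09% in the WT list).

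Among KO-only members at an FDR of 1e-05 or below, the highest folds were in Fam184a (24.4-fold, span 19675 bases), Tbc1d1 (9.32-fold, 82776 bases) and Tbc1d14 (8.84-fold, 20832 bases), Tbc1d1 and Tbc1d14 encoding TBC-domain proteins of Rab signalling. Exoc3l4 (8.42-fold), Dclk2 (8.12-fold), a doublecortin-like kinase, and the sorting nexin gene Snx29 (7.44-fold) followed. Cenpe, the kinetochore motor that moves chromosomes to the metaphase plate, had a KO-only peak at chr3:135268976-135271050 (4.72-fold, log10 FDR -41.5). Kif17, a kinesin found in germ cells, had one at chr4:138275040-138278098 (4.51-fold, log10 FDR -6.73).

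Among WT-only members at the same FDR, Napsa, an aspartic protease gene, stood highest (9.26-fold, span 8809 bases), before Rai14 (6.48-fold, 56265 bases), an actin-binding protein gene, and the microtubule-associated ubiquitin ligase gene Mid1 (4.44-fold). Spag17, which encodes a central-pair protein of the sperm axoneme, had a WT-only peak at chr3:100056135-100058780 (3.00-fold, log10 FDR -13.4). The axonemal gene Cfap73 (2.93-fold), Ccdc83 (2.77-fold), the elongin C gene Eloc (2.55-fold) and the centrosome and spindle gene Cspp1 (2.54-fold) completed the 8.

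The member with the highest fold in the WT list, named after its value was seen, lay in Rrbp1, a ribosome-binding protein gene of the endoplasmic reticulum, at chr2:143988222-143990171 (978-fold, 1951 bases). It overlapped a KO peak of 22893 bases at 569-fold that is annotated to the 5′UTR and so is no member. The genes that follow were chosen as those held by both lists, as the pairs of members with the highest lower fold. Fbl, the gene of the nucleolar RNA methyltransferase fibrillarin, had the highest fold of all KO members, 120-fold at chr7:28172098-28174895, and an 80.2-fold peak in the WT list at chr7:28172098-28174925. Polr1d, a subunit shared by RNA polymerases of the ribosomal and transfer RNA genes, had 62.6-fold in the KO list and 271-fold in the WT list. Zfc3h1, a cofactor of nuclear RNA decay, had 113-fold over 16290 bases in the KO list and 40.2-fold over 12741 bases in the WT list. The postsynaptic scaffold gene Shank1 had 98.3-fold in the KO list and 48.7-fold in the WT list. The listed fold was higher in the KO list for 3 of these 4 genes and higher in the WT list for Polr1d, with no error to set them against.

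For other pairs among the 10 highest the folds were closer or apart in the other direction. Blm, the RecQ helicase that dissolves recombination intermediates, had 38.6-fold in the KO list and 35.0-fold in the WT list, over 3906 bases in each. Setd1a, a histone methyltransferase gene, had 46.5-fold in the KO list and 95.8-fold in the WT list over the same 2198 bases. Zfp865 had 56.5-fold in the KO list and 112-fold in the WT list. Klhdc7a and the atypical cadherin gene Celsr3 had 42.4-fold and 46.9-fold in the KO list, against 41.7-fold and 39.8-fold in the WT list.

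Where 1 peak matched 1 peak, the KO span was more often the longer. Of 1252 such coding-exon pairs with a span above 1000 bases in at least 1 list, the KO span was longer in 779 (62.2%, 59.5 to 64.9), the WT span in 344 (27.5%, 25.1 to 30.0), and 129 were equal. The KO span was at least 1.5 times the WT span in 334 pairs (26.7%, 24.3 to 29.2) and the WT span at least 1.5 times the KO span in 105 (8.39%, 6.98 to 10.1). Over all 19371 1-to-1 pairs of every class, these shares were 15.1% with the KO span longer and 13.0% with the WT span longer. Of the pairs that differed by 1.5 times or more, the KO span was the longer in 76.1% (71.9 to 79.8) of 439 long-span coding pairs. It was the longer in 60.2% (56.5 to 63.7) of 718 such 3′UTR pairs, a difference of 15.9 points (10.4 to 21.1). In coding pairs with both spans up to 1000 bases it was the longer in 60.8% of 531, a difference of 15.2 points (9.41 to 20.9). It was the longer in 56.6% of 212 pairs in 5′UTRs and 49.5% of 283 in noncoding exons.

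**Figure D4:**
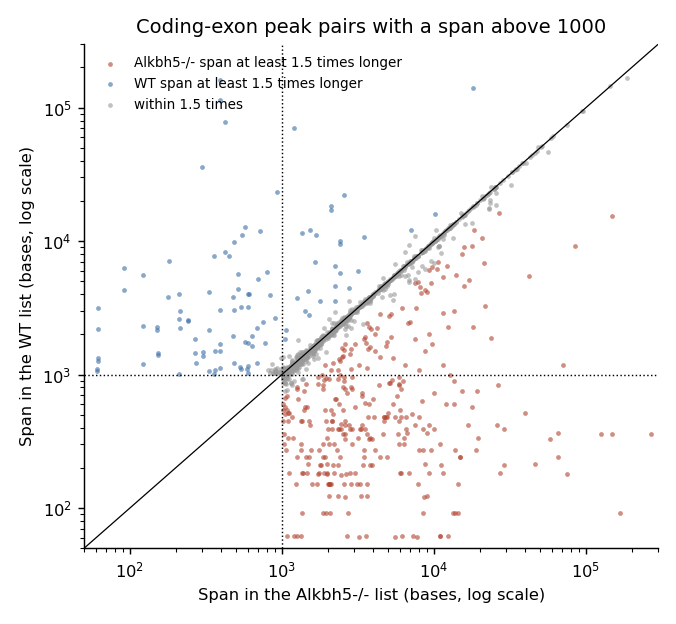
Span in the KO list (x axis) against span in the WT list (y axis), both in bases on log scales, for the 1252 coding-exon pairs with a span above 1000 bases in at least 1 list; the diagonal marks equal spans and dotted lines the limit of 1000 bases. Red points (KO span at least 1.5 times longer, 334 pairs) lie below the diagonal and outnumber the 105 blue ones (WT span longer) above it.

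Most long pairs had nearly the same edges. In the 872 pairs with both spans above 1000 bases, the edges were identical in 98 pairs (11.2%), within 30 bases in 352 (40.4%) and within 150 bases in 657 (75.3%). Of the 439 pairs that differed by 1.5 times or more, 332 (75.6%) crossed the limit, 254 with the KO span above it and 78 with the WT span above it. Counting every size of difference, 285 pairs had a KO span above the limit and a WT span up to it, against 95 the other way. In the 285, the median span was 2597 bases in the KO list and 391 bases in the WT list, and the median log10 FDR was -34.0 in the KO list and -16.7 in the WT list. In the 95, the median span was 479 bases in the KO list and 1860 bases in the WT list, and the median log10 FDR was -6.42 in the KO list and -5.84 in the WT list. Of the 334 pairs longer in KO, 202 (60.5%) reached beyond the WT peak on both sides. Of the 105 longer in WT, 36 (34.3%) reached beyond the KO peak on both sides. Across the 1252 pairs the median fold was 7.64 in the KO list and 6.48 in the WT list and the median log10 FDR -53.2 in the KO list and -38.4 in the WT list. In the 872 pairs with both spans above 1000 bases, the median fold was 8.04 in the KO list and 7.085 in the WT list. Their median log10 FDR was -74.15 in the KO list and -61.8 in the WT list. Whether fold or FDR goes with the span difference was not tested.

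The pairs named next were chosen after their values were seen, from the 8 on each side of the limit with the highest lower fold at an FDR of 1e-05 or below in both lists. Cnnm3, a gene of the magnesium transport family, spanned 5897 bases in the KO list and 452 bases in the WT list from the same start, at 52.3-fold in the KO list and 56.9-fold in the WT list. Ralgapa2 spanned 2277 bases in the KO list and 661 in the WT list, and Lemd3, an inner nuclear membrane protein gene, 26516 bases in the KO list and 838 in the WT list. Another 4, Zfhx3, Soga1, Tmem121b and Plcl2, differed by 30 to 270 bases around the limit. On the other side, the glutamate receptor gene Grm8 spanned 422 bases in the KO list and 77675 in the WT list, and Lpar1, a lysophosphatidic acid receptor gene, 572 bases in the KO list and 12755 in the WT list. Dok7 spanned 689 bases in the KO list and 2243 in the WT list, Slc16a4 479 in the KO list and 1959 in the WT list, and the centrin gene Cetn4 587 in the KO list and 1101 in the WT list. Zfyve28, Itpripl2 and Pcdhb17 differed by 89 to 330 bases.

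By gene, 1988 of the 4654 genes with a coding-exon peak in either list had a long-span one. They fell into 996 genes with a long-span coding peak in both lists (21.4%), 619 with one in the KO list alone (13.3%) and 373 with one in the WT list alone (8.01%). Of the 619, 382 had a shorter coding-exon peak in the WT list, 195 had WT peaks of other classes alone and 42 had no WT peak. Of the 373, 176 had a shorter coding-exon peak in the KO list, 157 had KO peaks of other classes alone and 40 had no KO peak. A gene counted in 1 list alone was thus in most cases also peaked in the other. When a gene counted as shared where its long-span peak overlapped any peak of the other list, 175 genes were counted in the KO list alone and 123 in the WT list alone. At an FDR of 1e-05 or below the counts were 404 in the KO list alone, 219 in the WT list alone and 818 in both.

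Several genes carried many long-span peaks, 3 or more in 46 genes of the KO list and 26 of the WT list. Over both lists together the most were in Bod1l (9), Fat1 and Srcap (8 each), before Kmt2d, Rnf213 and Spen (7 each). In the KO list Brca2 had as many as Bod1l, and in the WT list 7 genes had the highest number, 4. Bod1l, which protects stalled replication forks, had 5 in the KO list and 4 in the WT list: the KO peaks of 1951 and 2545 bases at chr5:41817955-41819904 and chr5:41820084-41822627 correspond to 1 WT peak of 4674 bases at chr5:41817865-41822537. Fat1, a giant protocadherin gene, had 4 in each list, and its longest had the same edges in both, chr8:45044092-45049848, at 7.15-fold in the KO list and 8.70-fold in the WT list. Kmt2d, a histone methyltransferase gene, had 4 in the KO list and 3 in the WT list. Rnf213, a giant ubiquitin ligase gene, had 4 in the KO list and 3 in the WT list. The 4 listed in each genotype for the remodeler gene Srcap are 2 regions, each given as 2 near-identical rows. Such repeats were rare, with 28 KO members and 30 WT members overlapping another member of the same gene and list.

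The named gene lists were then read against the shares over all genes with a coding-exon peak, 13.3% KO alone, 8.01% WT alone and 21.4% both. In these counts a gene is shared where each list holds a long-span coding peak of it, and the peaks need not overlap. Those of Bsn, Ranbp2, Ash1l, Ccnb3 and Hectd4, for example, do not. The gene lists have some genes in common, and their counts were not tested.

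**Figure D5:**
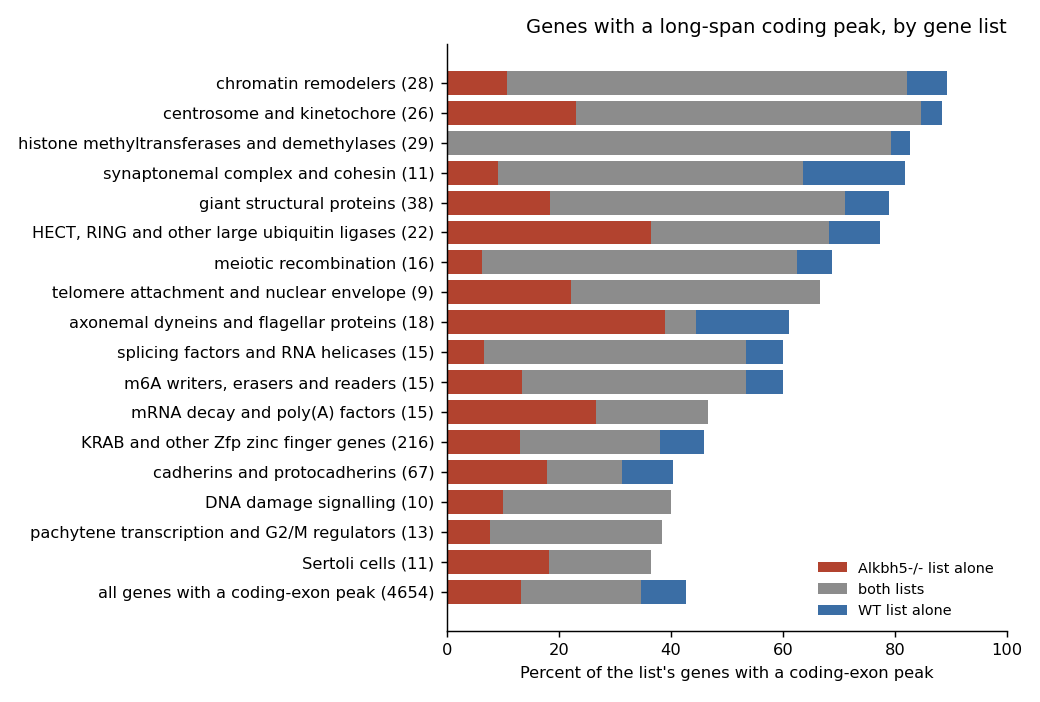
Percent of each list's genes with a coding-exon peak (number in parentheses) that have a long-span coding peak in the KO list alone (left segment), both lists (middle) and the WT list alone (right), for lists of 9 or more such genes and for all 4654 genes (bottom row). Chromatin gene lists are mostly shared, whereas axonemal genes are mostly in 1 list alone.

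Most chromatin regulator genes with a coding-exon peak had a long-span one in both lists. Of 29 genes of histone methyltransferases and demethylases with a coding-exon peak, 23 (79.3%) had a long-span one in both lists, 0 in the KO list alone and 1, Setdb2, in the WT list alone. The Setdb2 member, 1957 bases at 5.05-fold in the WT list, overlapped a KO peak of 6696 bases annotated to the 3′UTR. Kdm6b spanned 1171 bases at 15.0-fold in the KO list and 1111 bases at 14.1-fold in the WT list. Setd2, which methylates histones along transcribed genes, had 3 members in the KO list and 2 in the WT list. Its longest KO peak, 15221 bases long, overlapped a WT coding peak of 751 bases. Nsd1, another histone methyltransferase gene, had a shared peak at 14.2-fold in the KO list and 12.6-fold in the WT list, and a KO-only one at 3.16-fold. Of 28 chromatin remodeler genes, 20 (71.4%) were shared, 3 were in the KO list alone and 2 in the WT list alone. Chd8 spanned 7516 bases in each list at 15.2-fold in the KO list and 14.9-fold in the WT list. Chd5 had a WT-only peak of 6.02-fold with a log10 FDR of -1.54.

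Centrosomal and structural genes were shared in most cases. More were in the KO list alone than in the WT list alone, which also holds over all genes (13.3% against 8.01%). Of 26 centrosome and kinetochore genes, 16 were shared, 6 were in the KO list alone (23.1%) and 1 in the WT list alone (3.85%). Ninl, a centrosomal protein gene, spanned 8235 bases at 15.4-fold in the KO list and 8175 bases at 18-fold in the WT list. Pcm1, a scaffold of centriolar satellites, spanned 13246 bases in the KO list over a WT peak of 91 bases, and Cep128 4877 bases in the KO list over a WT peak of 481 bases. Of 38 genes of giant structural proteins, 20 were shared, 7 were in the KO list alone (18.4%) and 3 in the WT list alone (7.9%). Golgb1, a Golgi tether gene, had 15.4-fold in the KO list and 14.6-fold in the WT list. Of 22 large ubiquitin ligase and protease genes, 7 were shared, 8 were in the KO list alone (36.4%) and 2 in the WT list alone. The ligase genes Trip12, Herc1 and Huwe1 spanned 9591, 2897 and 1250 bases in the KO list over WT coding peaks of 272, 392 and 242 bases. None of these 22 genes had a genotype-only long-span peak. This is not particular to them. The lists of DNA damage signalling, of the piRNA pathway and Tudor proteins, and of splicing factors and RNA helicases, among others, had none either. Over all members, 12.9% of the KO list and 10.1% of the WT list were genotype-only. No such share per gene was computed, and the count was not tested.

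Axonemal genes differed from this pattern in their counts. Of 18 genes of axonemal dyneins and flagellar proteins, 1 was shared, 7 were in the KO list alone (38.9%) and 3 in the WT list alone (16.7%). The shared one, the inner-arm dynein gene Dnah7b, had a peak at chr1:46137526-46139773 in the KO list at 5.91-fold and one from the same start in the WT list at 1.98-fold. Dnah17, an outer-arm dynein gene of sperm, had a KO-only peak of 1338 bases at 3.47-fold with a log10 FDR of -18.7. The KO-only peaks of Dnah2, Dnah10, Dnah7a and Dnah7c had log10 FDR values between -0.572 and -2.92. Dnah7a, Dnah7b and Dnah7c are close paralogs, so reads could be split between them. The WT-only peak of Cfap54 had a log10 FDR of -0.733. At an FDR of 1e-05 or below, the genes in the KO list alone were 3: Ccdc39 and Dnah17, 2 of the 7 above, and Dnah7b, whose WT peak had a log10 FDR of -4.84. Those in the WT list alone were Akap3 and Spag17, 2 of the 3 above, and 0 were shared. Of the 4 round spermatid markers, 2 had a peak of any class in the KO list and 0 in the WT list, and of the 6 spermatocyte markers 4 had one in the KO list and 5 in the WT list. Their part in these counts was not tested.

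Of the meiotic lists, those of recombination and of the synaptonemal complex and cohesin had 56.2% and 54.5% of their genes shared. Of 16 meiotic recombination genes, 9 were shared, 1 (Brca1) was in the KO list alone and 1 (Fanca) in the WT list alone. Exo1, a resolution nuclease gene, spanned 1728 bases at 8.77-fold in the KO list and 1668 bases at 5.75-fold in the WT list. Mlh3, a crossover endonuclease gene, had 2 members in each list, the longer of 4010 bases at 5.76-fold in the KO list and 3981 bases at 5.65-fold in the WT list. Brca2, which loads recombinases, had 5 members in the KO list and 1 in the WT list, and 3 of the KO ones overlapped shorter WT coding peaks. Of 11 synaptonemal complex and cohesin genes, 6 were shared, Smc1a was in the KO list alone, and Syce1 and Sycp2 were in the WT list alone. The longest Sycp1 peak spanned 48501 bases at 2.76-fold in the KO list and 50776 bases at 2.38-fold in the WT list. Smc1b, the meiotic cohesin subunit gene, spanned 9222 bases at 3.32-fold in the KO list and 6039 bases at 2.09-fold in the WT list. The WT-only peaks of Sycp2 and Syce1 stood at 1.37-fold and 1.31-fold.

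Of 9 genes of telomere attachment and the nuclear envelope, 4 were shared (44.4%), 2 were in the KO list alone and 0 in the WT list alone. Spdya, a kinase activator needed at meiotic telomeres, spanned 9272 bases at 4.26-fold in the KO list over a WT coding peak of 418 bases at 2.27-fold. Of 13 genes of pachytene transcription and G2/M regulation, 4 were shared (30.8%), 1 was in the KO list alone and 0 in the WT list alone. The 1 was the translation factor gene Eif4g3, with 6354 bases at 3.97-fold in the KO list over a WT coding peak of 301 bases at 2.48-fold. Of 10 DNA damage signalling genes, 3 were shared (30.0%), 1 (Mdc1, an adaptor at DNA breaks) was in the KO list alone and 0 in the WT list alone. Of 7 genes of the piRNA pathway and Tudor proteins, 2 were shared, 1 (Tdrd3) was in the KO list alone and 1 (Tdrd6) in the WT list alone, each over shorter coding peaks of the other list.

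Genes of mRNA and m6A metabolism gave smaller counts. Of 15 genes of m6A writers, erasers and readers, 6 were shared, 2 were in the KO list alone and 1 in the WT list alone. Rbm15, a subunit of the writer complex, spanned 2366 bases at 16.4-fold in the KO list and 2545 bases at 23.5-fold in the WT list. Fto, the other m6A demethylase gene, spanned 18255 bases at 7.57-fold in the KO list and 18225 bases at 4.74-fold in the WT list. Wtap, a writer subunit gene, spanned 6275 bases at 8.31-fold in the KO list, over a WT coding peak of 899 bases at 7.91-fold. Virma, another writer subunit gene, spanned 11316 bases at 10.5-fold in the WT list, over a KO peak of 19483 bases at 15.1-fold annotated to the 3′UTR. Ythdc1, the nuclear reader, had a shared peak at 13.2-fold in the KO list and 15.2-fold in the WT list. Its KO-only peak, of 7007 bases at 2.71-fold, lay inside another KO member of 48233 bases at 4.81-fold. That longer member overlapped a WT peak of another class. Of 15 mRNA decay genes, 3 were shared, 4 (Dcp1b, Dis3l and Pan2 among them) were in the KO list alone (26.7%) and 0 in the WT list alone. Pan2, a deadenylase subunit gene, had a KO-only peak of 3.38-fold with a log10 FDR of -31.3. Of 15 genes of splicing factors and RNA helicases, 7 were shared (46.7%), 1 (Dhx30) was in the KO list alone and 1 (Dhx57) in the WT list alone.

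Zinc finger and cadherin genes were the largest families. Of 216 Zfp genes, 54 were shared (25.0%), 28 were in the KO list alone (13.0%) and 17 in the WT list alone (7.87%), each close to the share over all genes. Of 67 cadherin and protocadherin genes, 9 were shared (13.4%), 12 were in the KO list alone (17.9%) and 6 in the WT list alone (8.96%). The clustered protocadherins are paralogs, so reads could be split between them, which was not examined. Spermatogonial genes with a coding-exon peak numbered 6, of which Sall4 and Tex14 had a long-span one in the KO list alone. Sall4 spanned 5408 bases at 12.4-fold in the KO list over a WT peak of 600 bases at 13.4-fold. Tex14, a germ cell bridge gene, spanned 2346 bases in the KO list over a WT peak of 389 bases. Of 6 round spermatid genes, Brdt, a testis bromodomain gene, was shared over the same 2127 bases, at 7.59-fold in the KO list and 4.08-fold in the WT list, and 1, Tssk3, was in the WT list alone. Of 11 Sertoli cell genes, 2 were shared (Espn among them) and 2 were in the KO list alone (Rhox8 and Tjp1), each over a shorter WT coding peak. Leydig cell genes (2 with a coding-exon peak), peritubular, endothelial and immune genes (4) and housekeeping genes (3) had none.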

How the data were processed

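Per the file headers and labels, each deposited list compares the IP with the input libraries of 1 genotype (KO or WT, 3 of each kind). The authors' fold enrichment per peak is a ratio on a linear scale, and the deposited log10 p-value and log10 FDR are handled here as a score, since the smallest are written as minus infinity. The deposited positions and spans are in bases on GRCm38. The span equals end minus start plus 1 in every row and starts are counted from 0, so it is 1 base too long. Positions are printed from 1. HISAT2, StringTie, HOMER, fastp and FastQC are named, with no role, in the submitters' processing notes. The peak caller, its settings and any pooling of replicates are not given in the sources used here.

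From the lists, members were selected by annotation and span (above 1000 bases), and partners were found by overlap of at least 1 base on the same strand. Wilson and Newcombe 95% intervals were computed with numpy 2.4.6 and scipy 1.17.1 on tables read with pandas 2.3.3. Partner calls and the coverage of the Newcombe interval were tested first on simulated data. The coverage test used independent draws in smaller groups than most of those here. It does not cover several peaks within a gene. No p-value was computed, since peaks are not replicates. Depth per sample is unknown. The members, the 23 gene lists and the tests were chosen with earlier results of these data known. Named genes, clone-type names left out, are the 10 shared pairs with the highest lower fold, the 8 strongest KO-only and WT-only peaks at an FDR of 1e-05 or below, the 5 genes with most members, up to 3 per gene list, the 3 longest spans per list, those nearest the limit and Alkbh5. Other members of these lists were named after their values were seen. A few genes that these rules select are not reported here. Of 1988 member gene symbols, 1975 matched RefSeq. RefSeq (GRCm38.p6) served for the bases before gene starts and for gene positions. Exon structure and motif density under the peaks were not analysed here, since no exon coordinates and no genome sequence beyond those windows were used. Alternatives were FDR limits, span limits, overlap rules, strand, equal list lengths and merging of repeated peaks.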

Additional observations from a re-analysis of the deposited data

How the results depend on the processing

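Across 14 results and 12 alternative settings, 46 of 75 values stayed within the interval of the reported value (counts within 1.5 times), 29 moved beyond it and 0 changed sign. Strand, equal list lengths, merging of repeated peaks, a span ratio of 2 and the span counted as end minus start moved none of their values. The last of these could move none, since no member had a listed span only 1 base above the limit. Its 3 values are counted among the 46. The cause of the moves below was not tested except where the setting itself sets fewer peaks or a stricter match.

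At an FDR of 1e-05 or below in both lists, the KO-only share was 11.2% and the WT-only share 6.45%, the long-partner share 64.1% for KO and 78.4% for WT members, genes in the KO list alone numbered 404 and in the WT list alone 219, 63.2% of WT members exceeded the median fold of coding peaks (66.0% with all peaks), and the KO span was the longer in 81.6% of unequal pairs. At an FDR of 0.05 or below, chosen after seeing the data, the WT-only share was 8.20% and the WT long-partner share 72.6%. At spans above 2000 bases there were 1257 KO and 995 WT members, with long-partner shares of 53.5% for KO and 67.9% for WT, a WT-only share of 12.8%, 623 shared genes and 62.9% of WT members above the median fold. When 50% of both spans had to overlap, 40.3% of KO and 29.1% of WT members had no partner, a difference of 11.2 points, and 51.3% of KO and 62.5% of WT members had a long partner. With partners allowed within 200 bases, the KO-only share was 11.1% and the WT-only share 8.50%. Counting a gene as shared where its member overlapped any peak gave 175 KO-alone, 123 WT-alone and 1690 shared genes. By log10 p in place of the fold, 72.8% of KO and 73.1% of WT members exceeded the median of coding peaks. Of 69 counts by gene list, 59 stayed within 1.5 times at an FDR of 1e-05 or below. Of 130 named members, 11 lost their partner when 50% of both spans had to overlap, and 5 gained one within 200 bases.

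No paired analysis was possible because the lists carry no value per library, and leaving out replicates was not run for the same reason. Exon structure and motif density were not run, with their alternatives. Depth per library is unknown, so no limit of detection is given.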

Other observations

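Other gene groups were read from the authors' pathway annotation. Those named were chosen after their values were seen, from 93 pathways with at least 20 genes that have a coding-exon peak, and were not tested. Over all such genes, 42.7% had a long-span coding peak, 21.4% in both lists, 13.3% in the KO list alone and 8.01% in the WT list alone. Of 24 genes annotated to lysine degradation, which include many of the histone methyltransferases above, 19 (79.2%) had one, 17 (70.8%) in both lists, 0 in the KO list alone and 2 in the WT list alone. Of 28 annotated to vascular smooth muscle contraction, 17 (60.7%) had one, 9 (32.1%) in both lists. The KO list alone held one for 3 of the 28 (10.7%) and the WT list alone for 5 (17.9%). Of 31 annotated to RNA transport, 18 (58.1%) had one, 10 (32.3%) in both lists, 7 (22.6%) in the KO list alone and 1 in the WT list alone. Of 21 annotated to autophagy, 12 (57.1%) had one, 5 (23.8%) in both lists, 6 (28.6%) in the KO list alone and 1 in the WT list alone.

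Single members lay on the mitochondrial genome and the Y chromosome. The mitochondrial gene mt-Nd5, a subunit of respiratory complex I, had a member of 1825 bases at 6.53-fold in the KO list and of 1257 bases at 5.92-fold in the WT list. The Y-linked gene model Gm21704 had 1 member in the KO list (9.92-fold, log10 FDR -1.71) and 2 in the WT list (13.0-fold and 11.1-fold, log10 FDR -2.33 and -1.85).

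Long spans can enclose other genes. A whole other RefSeq gene lay inside 69 KO members (3.60%) and 52 WT members (3.30%), and an miRNA hairpin inside 2 KO members and 3 WT members. Mir339 lay inside a member of 3110082I17Rik in both lists, of 51167 bases in the KO list and 50959 bases in the WT list.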
